A study of Mus musculus with 15 samples.

Results

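The unfolded protein and amino acid stress response was followed in mouse primary hepatocytes through 36 genes, chosen by symbol: 14 chaperones and folding factors of the endoplasmic reticulum (ER), 4 genes of ER-associated degradation, 4 stress sensors or their transcription factors, 4 transcription factors of the ATF4-CHOP arm, 7 of its targets and feedback genes, and 3 amino acid synthesis enzymes. All 36 were among the 24347 entries of the table, and all 36 passed the filter on low values (10 scaled reads or more in 3 or more libraries), which left 12703 genes to test. The 15 libraries came from wild type hepatocytes isolated by stepwise digestion of the liver and fell into 5 groups of 3: cAMP with IL-13, cAMP, glucagon with IL-13, glucagon, and vehicle. Cells were held for 2 h with 10 ng/mL recombinant IL-13 or without it and then stimulated for 3 h, either with cAMP at 100 µM or with glucagon at 100 nM, and IL-13 was kept on where it had been given. Since IL-13 was never given alone, its effect on a stimulated response and an effect it would have in resting cells cannot be told apart.

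When unfolded proteins build up in the ER, the chaperone BiP leaves the sensors IRE1α, PERK and ATF6. IRE1α then splices the mRNA of XBP1, ATF6 is cut into a transcription factor that raises chaperone genes, and PERK phosphorylates the translation factor eIF2α. Phosphorylated eIF2α slows protein synthesis in general but favours translation of ATF4, which drives amino acid synthesis and transport, CHOP (Ddit3), and feedback genes. A lack of amino acids reaches the same ATF4 program through the kinase GCN2. Hepatocytes secrete large amounts of plasma protein, and glucagon, acting through cAMP, directs amino acids in the liver towards glucose.

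Values are scaled reads, which are reads per gene put on a common scale across libraries by the authors, unless FPKM (reads per length and depth) is named. Recovered reads per library ran from 15567578 to 24245894. Nr4a1, a rapid cAMP target, ranged from 3369.1 to 3726.8 with cAMP and from 2523.1 to 2916.6 with glucagon, against 302.24 to 341.32 with vehicle, and G6pc and Pck1, genes of glucose production, followed the same labels. Cish, a cytokine feedback gene, stood at 1536.3 to 1660.6 with cAMP and IL-13 against 421.87 to 477.72 with cAMP, and at 1340.1 to 1428.8 with glucagon and IL-13 against 340.25 to 395.56 with glucagon. One description field names the cAMP libraries as controls, against their titles, treatments and column names, which were followed. The strain label differed from library to library and was not used. Vehicle library a stood apart: 86 of 8250 well-covered genes were over 2-fold lower in it than in the other vehicle libraries, against 0 to 11 genes in any other library. The hepatocyte markers (8 of 8 present) summed to 622980 scaled reads or more in every library, and the lymphocyte markers to at most 4.47. A change in bulk RNA cannot tell fewer cells of a type from less RNA per cell. Whether the libraries within a group stem from different mice or cultures is not labelled, and p-values therefore reflect library-to-library spread that could be technical.

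Promoter sequences of the genes are shown first, because genes that share an element did not all change the same way. RefSeq promoter sequences (GRCm38.p6) were found for 32 of the 36 genes, and the 250 bases before each RefSeq start were searched on both strands. GENCODE places the starts of Hspa5, Asns and Vldlr further upstream, so that the stretches printed for these 3 overlap an exon there and were kept shorter. The ER stress response element (ERSE), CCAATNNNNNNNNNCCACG, is the element through which ATF6 acts with the CCAAT-binding factor NF-Y, and exact matches lay before 8 of the 32 genes and 0.1126% of 32851 promoters. In the 8 stretches that follow, written along the gene's own strand, capitals mark the match, which reads as the reverse complement where the element faces the other way. The Hsp90b1 stretch holds a match in each orientation.
Hspa5, chr2:34772020-34772048, plus strand: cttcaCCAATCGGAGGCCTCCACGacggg
Hsp90b1, chr10:86705521-86705668, minus strand: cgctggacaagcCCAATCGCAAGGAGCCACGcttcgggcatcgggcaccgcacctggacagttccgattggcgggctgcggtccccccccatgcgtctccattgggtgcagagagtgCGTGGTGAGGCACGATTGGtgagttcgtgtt
Calr, chr8:84847063-84847105, minus strand: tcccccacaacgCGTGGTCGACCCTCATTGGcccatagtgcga
Canx, chr11:50325788-50325830, minus strand: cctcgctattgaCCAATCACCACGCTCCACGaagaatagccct
Pdia6, chr12:17266479-17266521, plus strand: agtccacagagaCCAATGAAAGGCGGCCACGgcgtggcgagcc
Dnajc3, chr14:118937815-118937857, plus strand: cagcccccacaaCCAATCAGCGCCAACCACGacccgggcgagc
Creld2, chr15:88819508-88819550, plus strand: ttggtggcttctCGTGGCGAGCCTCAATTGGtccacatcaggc
Syvn1, chr19:6046520-6046562, plus strand: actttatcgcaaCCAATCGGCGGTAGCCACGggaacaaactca

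The C/EBP-ATF response element, TGATGNAA, is bound by ATF4 and CHOP as partners of C/EBP proteins. It lay before 5 of the 32 genes and 3.452% of all promoters. The cAMP response element (CRE), TGACGTCA, lay before Ppp1r15a alone among the 32 genes, and before 1.546% of all promoters. In the next 6 stretches capitals mark the C/EBP-ATF element, or for Ppp1r15a the CRE.
Asns, chr6:7693220-7693237, minus strand: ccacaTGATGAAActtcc
Atf3, chr1:191183424-191183455, minus strand: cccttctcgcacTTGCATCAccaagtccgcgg
Chac1, chr2:119351037-119351068, plus strand: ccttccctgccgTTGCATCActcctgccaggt
Herpud1, chr8:94386305-94386336, plus strand: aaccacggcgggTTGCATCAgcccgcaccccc
Vldlr, chr19:27216815-27216832, plus strand: aatagTTGCATCAgcgct
Ppp1r15a, chr7:45526269-45526292, minus strand: ccgcctctccggTGACGTCAgcac
The shorter TGACG, which is contained in the CRE, lay before 13 of the 32 genes and 17.77% of all promoters. The XBP1 element TGACGTGG lay before 0 of the 32 genes and 0.5631% of all promoters. A match describes these letters and is neither a shown binding site nor a cause of a change.

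In vehicle the most abundant of the 36 transcripts per length was Hspa5, which encodes BiP, at 812 ± 10.6 FPKM (SD, n = 3). The lectin chaperone Calr followed at 346 ± 18.6 FPKM, and then the transcription factors Atf4 at 225 ± 11.0 and Atf5 at 201 ± 19.1 FPKM. The lowest was Vldlr, a lipoprotein receptor gene and PERK-ATF4 target, at 3.23 ± 0.42 FPKM. The 3 synthesis enzymes lay between, with Psat1 at 81.5 ± 2.29, Asns at 60.5 ± 2.78 and Phgdh at 28.7 ± 2.28 FPKM. All 36 were thus detected in unstimulated cells, over a wide span of levels.

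**Figure D1:**
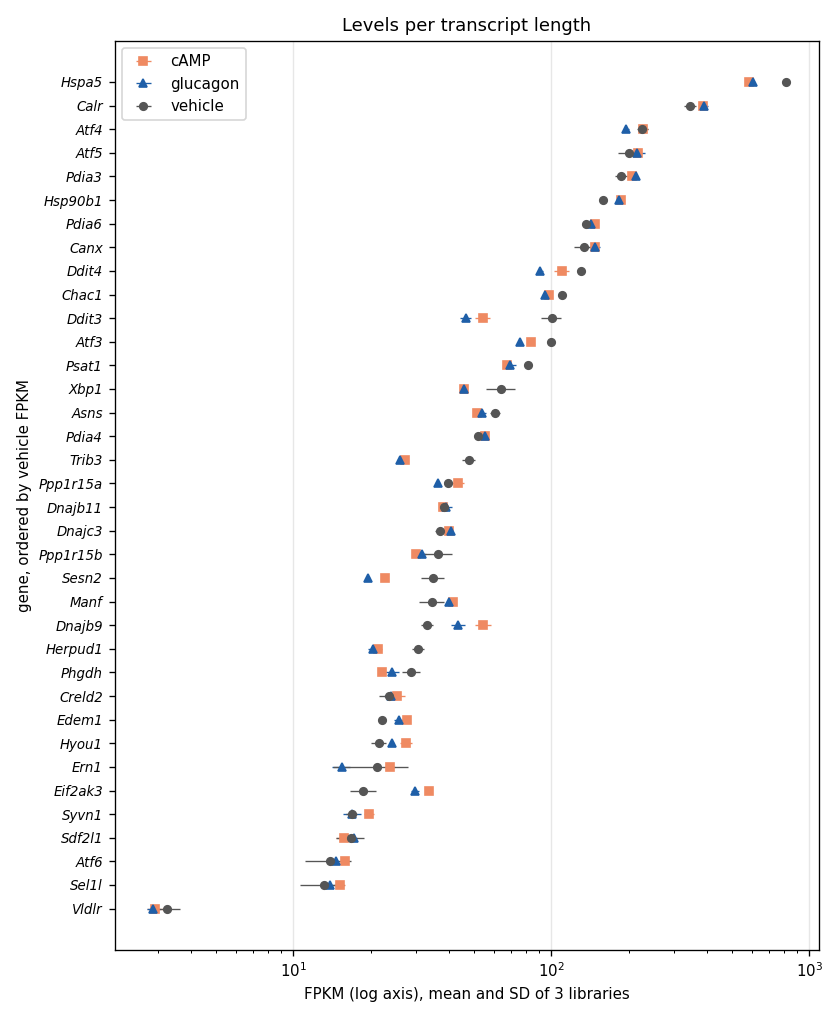
FPKM (log axis, mean and SD of 3 libraries) of the 36 genes with cAMP, glucagon and vehicle, ordered by the vehicle level. Hspa5 is highest at 812 FPKM in vehicle and lies left of its vehicle point with either stimulus, whereas Eif2ak3 and Dnajb9 lie to the right of theirs.

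Each stimulus changed genes among the 36 in both directions. With cAMP against vehicle, 8 of 36 rose, beside 13.0% of all genes tested, and 12 of 36 fell, beside 12.8% of all genes (limma, adjusted p under 0.05). With glucagon against vehicle, 7 rose beside 9.35% of all genes, and 12 fell beside 9.53%. The falls lay mostly in the ATF4-CHOP arm and its enzymes: 9 of its 14 genes fell and 0 rose with cAMP, and 9 fell and 0 rose with glucagon. Of the other 22 genes, which work in or sense the ER, 8 rose and 3 fell with cAMP, and 7 rose and 3 fell with glucagon, the 3 being Hspa5, Herpud1 and Xbp1 each time. The median log2 change of all 36 was 0.08 with cAMP and 0.01 with glucagon, beside 0.01 and 0.02 for all genes tested. Both comparisons use the same vehicle libraries, so they are not independent. With every library scaled to the same total, 4 rose and 13 fell with cAMP, and 4 rose and 14 fell with glucagon. Without vehicle library a, 10 rose and 14 fell with cAMP, and 8 rose and 14 fell with glucagon. Markers of other liver cells moved in part: the cholangiocyte markers (6 of 6 present, 3 averaging under 10) summed to 12662 to 13128 scaled reads with cAMP and 13038 to 13734 with glucagon, against 13768 to 14887 with vehicle. The sinusoidal endothelial markers (8 of 8 present) summed to 2097.6 to 2231.4 with cAMP and 1866.3 to 2054.6 with glucagon, against 1526.9 to 2025.6 with vehicle. The glucagon sums thus overlapped vehicle. The Kupffer cell markers (10 of 10 present) summed to 5698 to 6166 with cAMP, 5756 to 5855 with glucagon and 5498 to 5748 with vehicle. The stellate cell markers (8 of 8 present, 2 averaging under 10) overlapped vehicle with both stimuli (368 to 425, 385 to 434 and 270 to 431). None of these markers was at 0 in every library, and their part in the result was not tested.

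**Figure D2:**
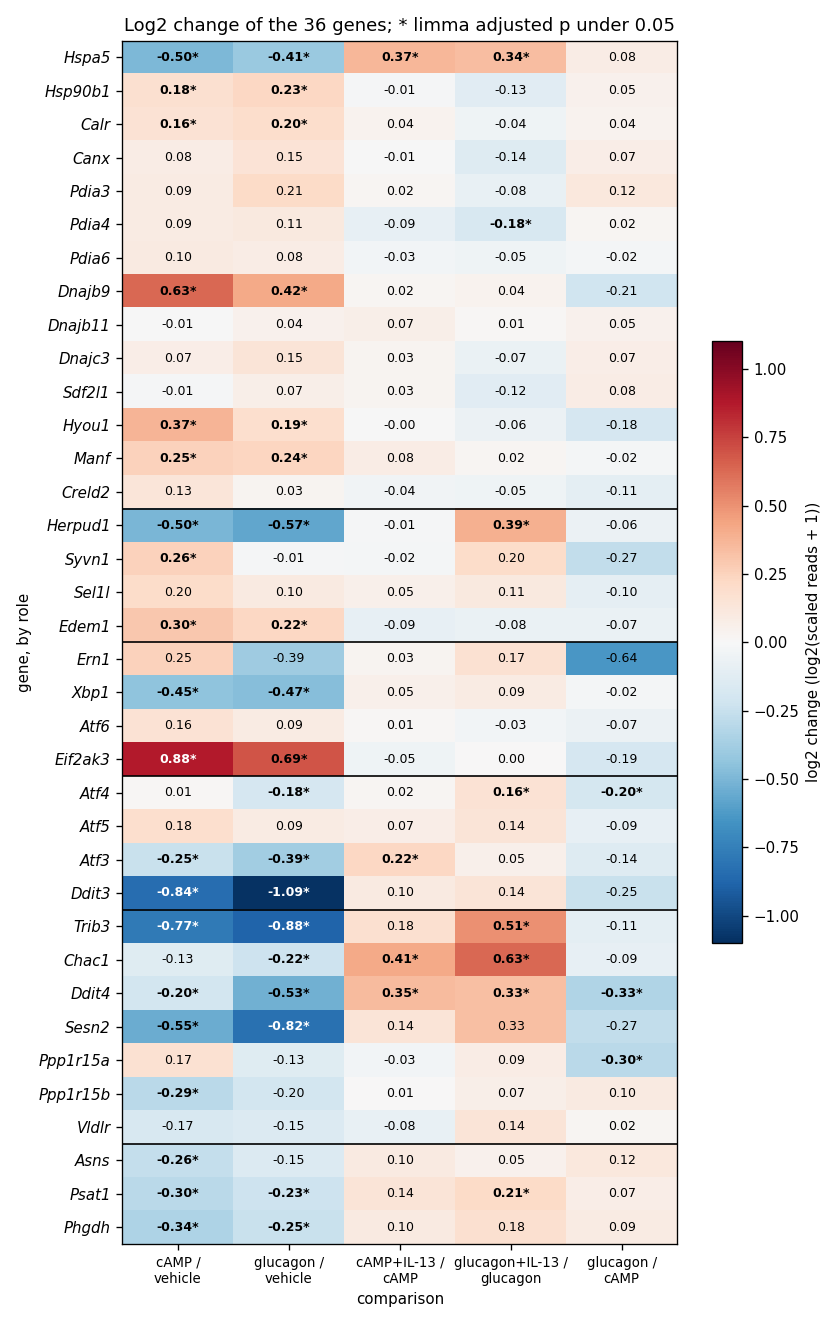
Log2 change of each of the 36 genes (rows, grouped by role between the black lines) in 5 comparisons (columns), with * where limma's adjusted p was under 0.05. The lower blocks, from Atf4 to Phgdh, hold no gene called higher with either stimulus, and the largest change is the fall of Ddit3 with glucagon (-1.09).

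Hspa5, the gene of BiP, the ER chaperone that holds the sensors inactive, fell with both stimuli. It stood at 24677, 25608 and 24078 scaled reads with cAMP, at 26647, 25554 and 26644 with glucagon, and at 35893, 33583 and 35387 with vehicle (Hspa5, Herpud1, Xbp1, Ern1, Atf3, Atf4 and Ddit4 are given by library because of their values, not by the rule for named genes). No library with cAMP or glucagon alone reached the lowest vehicle library. The log2 change was -0.50 ± 0.04 (SE) with cAMP (limma, adjusted p = 1.29e-08) and -0.41 ± 0.04 with glucagon (adjusted p = 2.4e-07).

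Dnajb9, the BiP cochaperone ERdj4, moved the other way. It stood at 1062, 1324 and 1025 scaled reads with cAMP, at 1107, 921 and 905 with glucagon, and at 861, 617 and 724 with vehicle. Every stimulated library lay above every vehicle library, although the glucagon libraries came close to vehicle library a. Dnajb9 changed by 0.63 ± 0.13 with cAMP (limma, adjusted p = 0.00184) and 0.42 ± 0.13 with glucagon (adjusted p = 0.0344). The glucagon call was lost without glucagon library 1 (adjusted p = 0.145) or 2 (0.0529), or vehicle library b (0.138) or c (0.076).

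Among the other 12 folding genes no gene fell with a stimulus. Hyou1, a large chaperone that recharges BiP with nucleotide, rose with cAMP (log2 change 0.37 ± 0.06, limma adjusted p = 0.000192). With glucagon (0.19 ± 0.06, adjusted p = 0.0456) it was no longer called once vehicle library a (adjusted p = 0.14) or any 1 of the 3 glucagon libraries (0.0766 to 0.125) was left out, nor with TMM scaling (0.0592) or every library scaled to the same total (0.122). Hsp90b1, the ER form of HSP90, changed by 0.18 with cAMP and 0.23 with glucagon, and Calr by 0.16 and 0.20. Manf, a secreted ER protein, changed by 0.25 and 0.24, with 1 vehicle library inside the range of the stimulated ones. Each of these last 3 passed the test with both stimuli, but Hsp90b1 and Manf lost both calls, and Calr its cAMP call, when certain single libraries were left out. The remaining 8 (Canx, Pdia3, Pdia4, Pdia6, Dnajb11, Dnajc3, Sdf2l1 and Creld2) did not pass in either comparison, with log2 changes from -0.01 to 0.13 with cAMP and from 0.03 to 0.21 with glucagon. Without vehicle library a, Pdia3 was called higher with both stimuli (limma, adjusted p = 0.0362 with cAMP and 0.00154 with glucagon), as it was on FPKM (0.0341 and 0.00609). Pdia6 with cAMP (0.0269 and 0.0316) and Dnajc3 with glucagon (0.0383 and 0.0365) were also called in these 2 settings. Canx with glucagon was called without glucagon library 2 (0.0345) or vehicle library c (0.0472). Of the 8 genes with an ERSE printed earlier, Hspa5 fell with both stimuli, Calr and Hsp90b1 were called higher with both and Syvn1 with cAMP, and Canx, Creld2, Dnajc3 and Pdia6 did not pass the test.

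**Figure D3:**
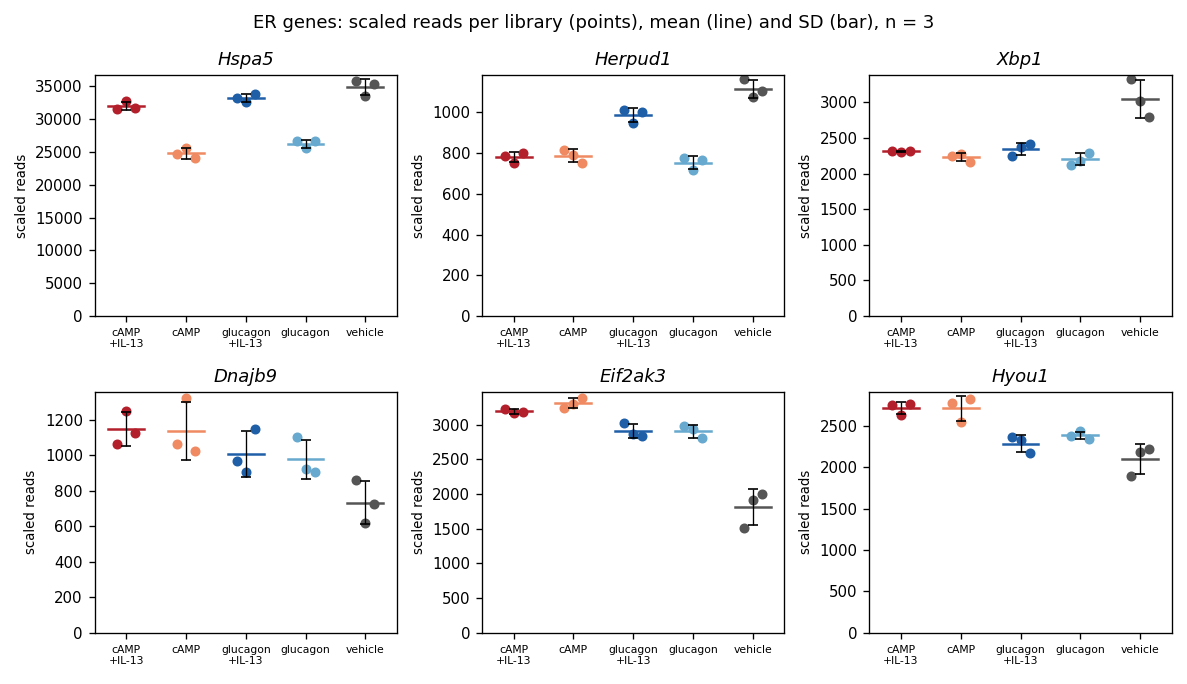
Scaled reads of 6 ER genes in every library (points) with the group mean (line) and SD (bar), n = 3, for cAMP with IL-13, cAMP, glucagon with IL-13, glucagon and vehicle from left to right. Hspa5, Herpud1 and Xbp1 lie lower with either stimulus than with vehicle and Dnajb9, Eif2ak3 and Hyou1 higher, and the IL-13 group means of Hspa5 lie between those of the stimulus and vehicle.

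Degradation genes also divided. Herpud1, a stress-induced part of the ER degradation complex, stood at 817, 792 and 753 scaled reads with cAMP, at 776, 716 and 766 with glucagon, and at 1163, 1077 and 1107 with vehicle. The groups did not overlap, with log2 changes of -0.50 ± 0.06 for cAMP (limma, adjusted p = 3.15e-06) and -0.57 ± 0.06 for glucagon (adjusted p = 1.03e-06). Edem1, which sends misfolded glycoproteins to degradation, rose with cAMP (0.30, adjusted p = 0.000176) and with glucagon (0.22, adjusted p = 0.00309). Syvn1, the ubiquitin ligase HRD1, was called higher with cAMP (0.26) but not without cAMP library 1 (adjusted p = 0.091), cAMP library 3 (0.0618) or vehicle library c (0.0569), and Sel1l, its adaptor, was not called. With cAMP Sel1l was called higher without vehicle library c (0.30, limma adjusted p = 0.0287) but not without library a (0.05, adjusted p = 0.618).

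Of the sensors, Eif2ak3, which encodes PERK, rose most. It stood at 3241, 3292 and 3381 scaled reads with cAMP, at 2982, 2929.8 and 2801 with glucagon, and at 1515, 1917 and 2006 with vehicle. The lowest stimulated library lay well above the highest vehicle library. The log2 change was 0.88 ± 0.08 with cAMP (limma, adjusted p = 5.4e-08) and 0.69 ± 0.08 with glucagon (adjusted p = 1.8e-06), and without vehicle library a, the lowest, it was 0.75 and 0.57. Atf6 did not pass the test with either stimulus. With cAMP it was called higher without vehicle library c (0.26, limma adjusted p = 0.0193) but not without library a (0.04, adjusted p = 0.693).

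Xbp1, whose mRNA is the splicing target of IRE1α, fell with both stimuli. It stood at 2242, 2278 and 2165 scaled reads with cAMP, at 2126, 2182 and 2289.7 with glucagon, and at 3325, 3014 and 2794 with vehicle, again without overlap. Its log2 change was -0.45 ± 0.06 with cAMP (limma, adjusted p = 1.19e-05) and -0.47 ± 0.06 with glucagon (adjusted p = 1.06e-05). Gene totals do not separate spliced from unspliced Xbp1. Ern1, which encodes IRE1α, depended on vehicle library a, where it had 1156 scaled reads against 2164 and 2316 in libraries b and c. Its change with glucagon was -0.39 (limma, adjusted p = 0.212) with that library and -0.71 (adjusted p = 1.45e-07) without it.

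Ddit3, which encodes CHOP, the transcription factor tied to death under prolonged ER stress, showed the largest fall. It stood at 969, 919 and 1077 scaled reads with cAMP, at 787, 823 and 882 with glucagon, and at 1859, 1697 and 1752 with vehicle. All 6 stimulated libraries lay far below the 3 vehicle libraries. Ddit3 changed on the log2 scale by -0.84 ± 0.07 with cAMP (limma, adjusted p = 3.12e-08) and -1.09 ± 0.07 with glucagon (adjusted p = 1.43e-09). Ddit3 shares exon bases with Mars on the opposite strand, and no strand setting of the counting is stated in the sources used here. Mars itself changed by -0.04 ± 0.05 with cAMP and -0.10 ± 0.05 with glucagon and did not pass the test.

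The other transcription factors of the arm moved less. Atf3, a stress-induced repressor, fell by 0.25 on the log2 scale with cAMP (limma, adjusted p = 0.000255) and by 0.39 with glucagon (adjusted p = 2e-06). Atf4, whose protein is set mainly by translation, stood at 7202, 6766 and 7158 scaled reads with cAMP, at 5948, 6350.1 and 6129.6 with glucagon, and at 7248, 6867 and 6811 with vehicle. The cAMP and vehicle libraries overlapped, and the glucagon libraries lay below both. Atf4 changed by 0.01 ± 0.05 with cAMP (adjusted p = 0.861) and by -0.18 ± 0.05 with glucagon (adjusted p = 0.007). Atf5 did not pass with either stimulus. It shares exon bases with Nup62 on the opposite strand. Nup62 changed by -0.18 with cAMP, which did not pass (limma, adjusted p = 0.0553), and by -0.31 with glucagon, which did (0.00233). With IL-13 under glucagon Nup62 rose (0.26, adjusted p = 0.0263).

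Among the targets, Trib3, a pseudokinase that feeds back on ATF4 and CHOP, stood at 1409.7, 1329 and 1459.6 scaled reads with cAMP, at 1225, 1348 and 1321 with glucagon, and at 2382, 2462 and 2332 with vehicle. The stimulated and vehicle libraries were widely separated. Trib3 changed on the log2 scale by -0.77 ± 0.05 with cAMP (limma, adjusted p = 3.6e-09) and -0.88 ± 0.05 with glucagon (adjusted p = 9.73e-10).

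Sesn2, a leucine sensor that restrains mTORC1, stood at 1661, 1552 and 1690.3 scaled reads with cAMP, at 1274, 1408 and 1383 with glucagon, and at 1936, 2714 and 2601 with vehicle. There was no overlap, and vehicle library a was the lowest of its group. On the log2 scale Sesn2 changed by -0.55 ± 0.10 with cAMP (limma, adjusted p = 0.000278) and -0.82 ± 0.10 with glucagon (adjusted p = 5.02e-06), and -0.70 and -0.97 without that library.

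Chac1, a glutathione-degrading enzyme and a strong target of ATF4, changed little with a stimulus by comparison. It stood at 3594, 3393 and 3547 scaled reads with cAMP, at 3111, 3389 and 3384 with glucagon, and at 3679, 3997 and 3869 with vehicle. All libraries with cAMP or glucagon alone were below all vehicle libraries, but by a small margin. Chac1 fell with glucagon (-0.22 ± 0.05, limma adjusted p = 0.00271) and just missed the threshold with cAMP (-0.13 ± 0.05, adjusted p = 0.0563), which it passed without vehicle library a (adjusted p = 0.0136).

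Ddit4 (REDD1), an inhibitor of mTORC1, fell with glucagon (-0.53 ± 0.07, limma adjusted p = 1.05e-05). Its smaller change with cAMP (-0.20 ± 0.07, adjusted p = 0.0325) was not called without cAMP library 2 (adjusted p = 0.178), vehicle library b (0.123) or vehicle library c (0.0719). Ppp1r15b, the constitutive eIF2α phosphatase subunit, fell with cAMP (-0.29, adjusted p = 0.00702). With glucagon Ppp1r15b did not pass (limma, adjusted p = 0.0767). It was called lower with glucagon without vehicle library a (-0.30, adjusted p = 0.00108) and with every library scaled to the same total (0.0363). Ppp1r15a, its stress-induced counterpart GADD34 and the gene with the CRE, did not pass with cAMP (0.17, adjusted p = 0.0715) or glucagon (-0.13, adjusted p = 0.181), and neither did Vldlr.

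The amino acid synthesis enzymes fell together with cAMP. Phgdh and Psat1, the first steps of serine synthesis, changed by -0.34 and -0.30, and Asns, asparagine synthetase, by -0.26 (limma, adjusted p = 0.00021, 0.000345 and 0.00251). Phgdh ranged from 960.4 to 1004 scaled reads with cAMP and from 999 to 1116 with glucagon, against 1174 to 1291 with vehicle. With glucagon, Phgdh (-0.25, adjusted p = 0.00435) and Psat1 (-0.23, adjusted p = 0.00528) fell, and Asns did not pass (-0.15, adjusted p = 0.0946). Of the 5 genes with a C/EBP-ATF element, Asns, Atf3 and Herpud1 fell with cAMP, and Atf3, Chac1 and Herpud1 with glucagon.

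**Figure D4:**
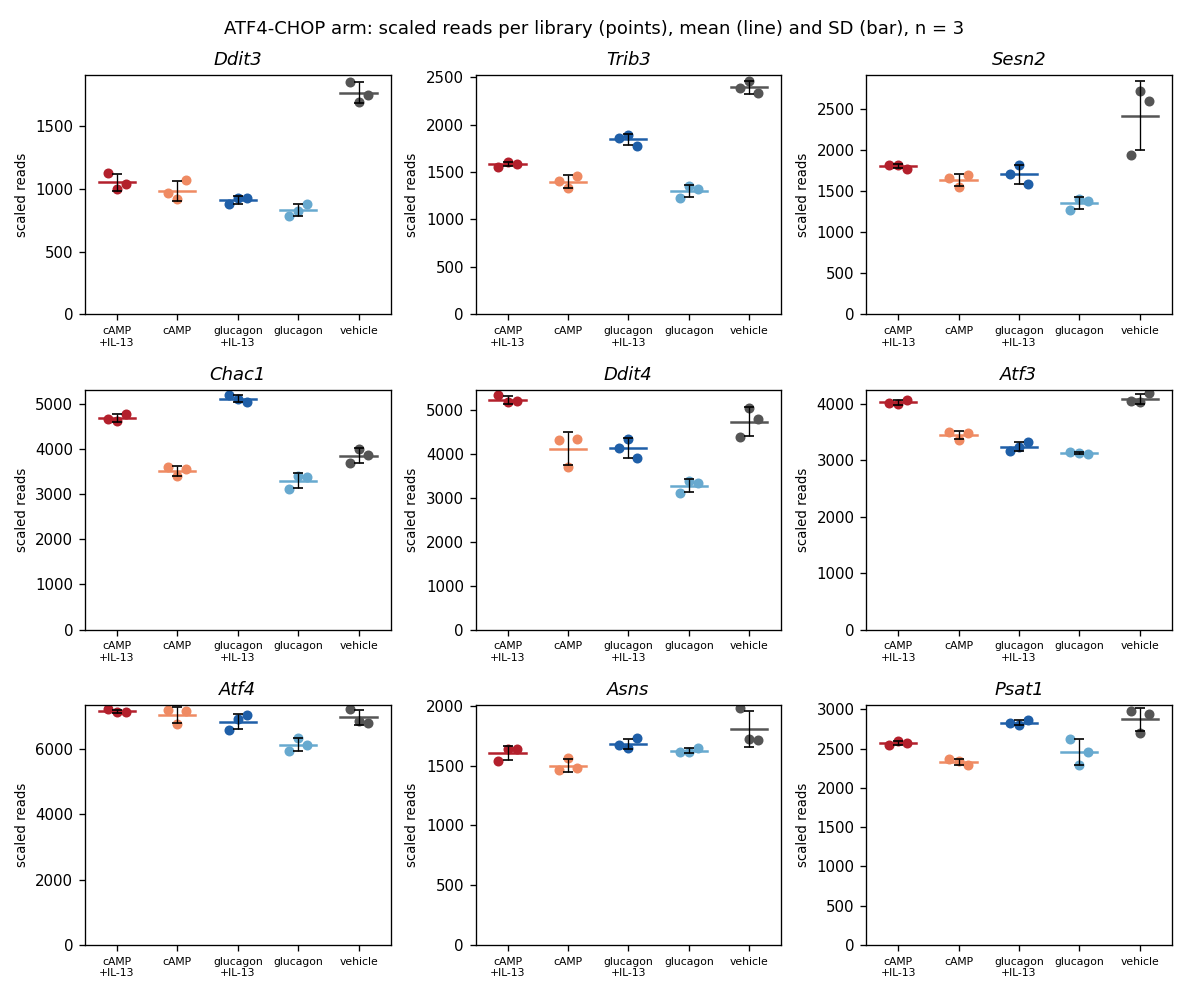
Scaled reads of 9 genes of the ATF4-CHOP arm in every library (points) with the group mean (line) and SD (bar), n = 3, for cAMP with IL-13, cAMP, glucagon with IL-13, glucagon and vehicle from left to right. Ddit3, Trib3 and Sesn2 are lower in all stimulated libraries than with vehicle, and Chac1 is highest in the 2 IL-13 groups.

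The wider pathway was followed through lists of genes that were not members, read against the shares of all genes given earlier (13.0% higher and 12.8% lower with cAMP, 9.35% and 9.53% with glucagon). Of 28 other ATF4 and amino acid response genes tested, 5 rose and 12 fell with cAMP, and 2 rose and 13 fell with glucagon (median log2 change -0.13 and -0.19). Bbc3, the death gene PUMA, had means of 233 ± 12.7 scaled reads with cAMP and 213 ± 31.0 with glucagon, against 489.7 ± 29.5 with vehicle (SD, n = 3 each; log2 change -1.07 and -1.21). Slc7a5, the leucine transporter LAT1, changed by -0.73 and -0.79, whereas Cebpb, the C/EBP partner, rose by 0.65 and 0.30 on the log2 scale, although the glucagon call of Cebpb was lost on FPKM (limma, adjusted p = 0.187). Fgf21, a fasting hormone, rose with cAMP (0.75). Of 16 aminoacyl-tRNA synthetases, which ATF4 also controls in part, 1 rose and 5 fell with cAMP and 0 rose and 5 fell with glucagon, with Rars at -0.45 and -0.39.

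On the ER side of the wider pathway, more genes of the folding list rose than fell. Of 43 other folding, entry and export genes, 11 rose and 1 fell with cAMP, and 8 rose and 0 fell with glucagon (median 0.11 and 0.10). Txndc11, an ER thioredoxin-domain protein, had means of 463 ± 48.9 scaled reads with cAMP and 409.7 ± 13.3 with glucagon, against 219.6 ± 8.21 with vehicle (log2 change 1.07 and 0.90). Of 18 other degradation genes 4 rose and 2 fell with each stimulus (median 0.06 with cAMP and -0.0003 with glucagon), with Edem3, a mannosidase like Edem1, at 0.69 and 0.58. Of 16 other sensor and eIF2 genes, 3 rose and 1 fell with cAMP and 2 rose and 0 fell with glucagon (median -0.0032 and 0.0089), so that the degradation and sensor lists had medians near 0. They included Nck1, an adaptor protein linked to eIF2α control, at 0.69 and 0.62, and Creb3l3, a liver ER-membrane transcription factor, at 0.50 with cAMP.

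IL-13 raised a small number of the 36 genes above the level with the stimulus alone. With cAMP and IL-13 against cAMP, 4 of 36 rose, beside 2.52% of all genes tested, and 0 fell, beside 1.38% (limma; 4 rose and 0 fell also with voom weights). With glucagon and IL-13 against glucagon, 7 rose, beside 3.50% of all genes, and 1 fell, beside 2.23% (6 rose and 1 fell with voom weights, without Atf4, adjusted p = 0.0509). Hspa5, Chac1 and Ddit4 rose with IL-13 under both stimuli, Atf3 under cAMP, and Herpud1, Trib3, Atf4 and Psat1 under glucagon. The median log2 change of the 36 was 0.03 and 0.06, beside 0.00 for all genes tested in both. The Kupffer cell markers summed to 5236 to 5506 with cAMP and IL-13 against 5698 to 6166 with cAMP, and to 5498 to 5563 with glucagon and IL-13 against 5756 to 5855 with glucagon (10 of 10 genes present). The cholangiocyte markers summed to 14125 to 14296 against 12662 to 13128, and to 14802 to 15036 against 13038 to 13734, with 3 of 6 genes averaging under 10 scaled reads. The stellate cell markers summed to 317 to 347 against 368 to 425, and to 339 to 357 against 385 to 434, with 2 of 8 genes under 10. No defining marker of these 3 cell types was at 0 in every library, and their part in the result was not tested.

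Chac1 responded most to IL-13. It stood at 4653, 4607 and 4769.8 scaled reads with cAMP and IL-13 against 3594, 3393 and 3547 with cAMP, and at 5195, 5108 and 5023 with glucagon and IL-13 against 3111, 3389 and 3384 with glucagon. All 6 IL-13 libraries lay above every library of the other 3 groups, vehicle included. IL-13 changed Chac1 on the log2 scale by 0.41 ± 0.05 with cAMP (limma, adjusted p = 2.65e-05) and 0.63 ± 0.05 with glucagon (adjusted p = 1.55e-07).

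Hspa5 rose with IL-13 under both stimuli. It stood at 31530 to 32728 scaled reads with cAMP and IL-13 against 24078 to 25608 with cAMP, and at 32700.0 to 33864 with glucagon and IL-13 against 25554 to 26647 with glucagon. The IL-13 libraries lay above the stimulus alone, and those with cAMP below all vehicle libraries. The log2 change was 0.37 ± 0.04 with cAMP (limma, adjusted p = 5.39e-06) and 0.34 ± 0.04 with glucagon (adjusted p = 1.55e-05). Pdia4, a disulfide isomerase, was the 1 gene called lower with IL-13 (-0.18 with glucagon, adjusted p = 0.0317), and it was not called without glucagon library 1 or 3 or any 1 of the 3 glucagon with IL-13 libraries (adjusted p from 0.0604 to 0.131).

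Ddit4 rose by a like amount in both settings. It stood at 5345, 5180.1 and 5196 scaled reads with cAMP and IL-13 against 4318, 3699 and 4352 with cAMP, and at 4144, 4350.5 and 3900.5 with glucagon and IL-13 against 3108, 3392 and 3337 with glucagon. Neither pair of groups overlapped. For Ddit4 the log2 change was 0.35 ± 0.07 with cAMP (limma, adjusted p = 0.00393) and 0.33 ± 0.07 with glucagon (adjusted p = 0.00464).

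Trib3 and Herpud1 rose with IL-13 under glucagon. Trib3 stood at 1857, 1894 and 1777 scaled reads with glucagon and IL-13 against 1225, 1348 and 1321 with glucagon, and at 1558, 1608 and 1587 with cAMP and IL-13 against 1409.7, 1329 and 1459.6 with cAMP. The groups did not overlap under either stimulus, with a log2 change of 0.51 ± 0.05 under glucagon (limma, adjusted p = 9.14e-06) and 0.18 ± 0.05 under cAMP (adjusted p = 0.0872). Under cAMP Trib3 was called higher on FPKM (limma, adjusted p = 0.0187) and in a fit of only the libraries compared (0.0257). Herpud1 stood at 1013, 947 and 1003 scaled reads with glucagon and IL-13 against 776, 716 and 766 with glucagon, and at 788, 753 and 799 with cAMP and IL-13 against 817, 792 and 753 with cAMP. Herpud1 was thus separated under glucagon (0.39 ± 0.06, adjusted p = 0.000383) and overlapped under cAMP (-0.01 ± 0.06, adjusted p = 0.977).

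Atf3 rose with IL-13 under cAMP. It stood at 4017, 3992 and 4077 scaled reads with cAMP and IL-13 against 3504, 3358 and 3484 with cAMP, and at 3172, 3236 and 3323 with glucagon and IL-13 against 3140.5, 3135 and 3107 with glucagon. For Atf3 the log2 change was 0.22 ± 0.04 with cAMP (limma, adjusted p = 0.00378) and 0.05 ± 0.04 with glucagon (adjusted p = 0.577). Atf4 (0.16, adjusted p = 0.0493) and Psat1 (0.21, adjusted p = 0.0281) passed the test under glucagon, but Atf4 lost its call without any 1 of the 6 libraries compared (adjusted p from 0.0506 to 0.172) and Psat1 without 5 of the 6 (0.0782 to 0.131). The difference between the IL-13 effects under the 2 stimuli was tested directly. It was called for 0 of 36 genes and 0 of all 12703 (0% in either direction; 0 of both with voom weights). Unadjusted, 4 of 36 and 608 of all genes had p under 0.05, and these 4 were Herpud1 (glucagon minus cAMP 0.40 ± 0.08, limma adjusted p = 0.48), Trib3 (0.33 ± 0.08, adjusted p = 0.796), Chac1 (0.22 ± 0.07, adjusted p = 0.874) and Atf3 (-0.17 ± 0.06, adjusted p = 0.909).

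Ddit3 was not raised by IL-13 to a degree that passed the test. It stood at 1127, 998 and 1040.3 scaled reads with cAMP and IL-13 against 969, 919 and 1077 with cAMP, and at 879.9, 932 and 930.5 with glucagon and IL-13 against 787, 823 and 882 with glucagon. The groups overlapped in both settings, with log2 changes of 0.10 ± 0.07 (limma, adjusted p = 0.689) and 0.14 ± 0.07 (adjusted p = 0.307). Sesn2 stood at 1819.6, 1823 and 1774 scaled reads with cAMP and IL-13 (log2 change 0.14 ± 0.10, adjusted p = 0.624) and at 1708, 1821 and 1582 with glucagon and IL-13 (0.33 ± 0.10, adjusted p = 0.0515). Sesn2 did not overlap between glucagon with IL-13 and glucagon alone, and was called higher in that comparison on FPKM (limma, adjusted p = 0.0117), in a fit of only the libraries compared (0.00368) and with the replicate block (0.00218). Eif2ak3, at 3226, 3166 and 3175 with cAMP and IL-13 and 3025, 2867 and 2829 with glucagon and IL-13, and Dnajb9, at 1066, 1253 and 1127 and at 966, 906 and 1152, did not pass the test (log2 changes -0.05 and 0.00 for Eif2ak3, 0.02 and 0.04 for Dnajb9).

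**Figure D5:**
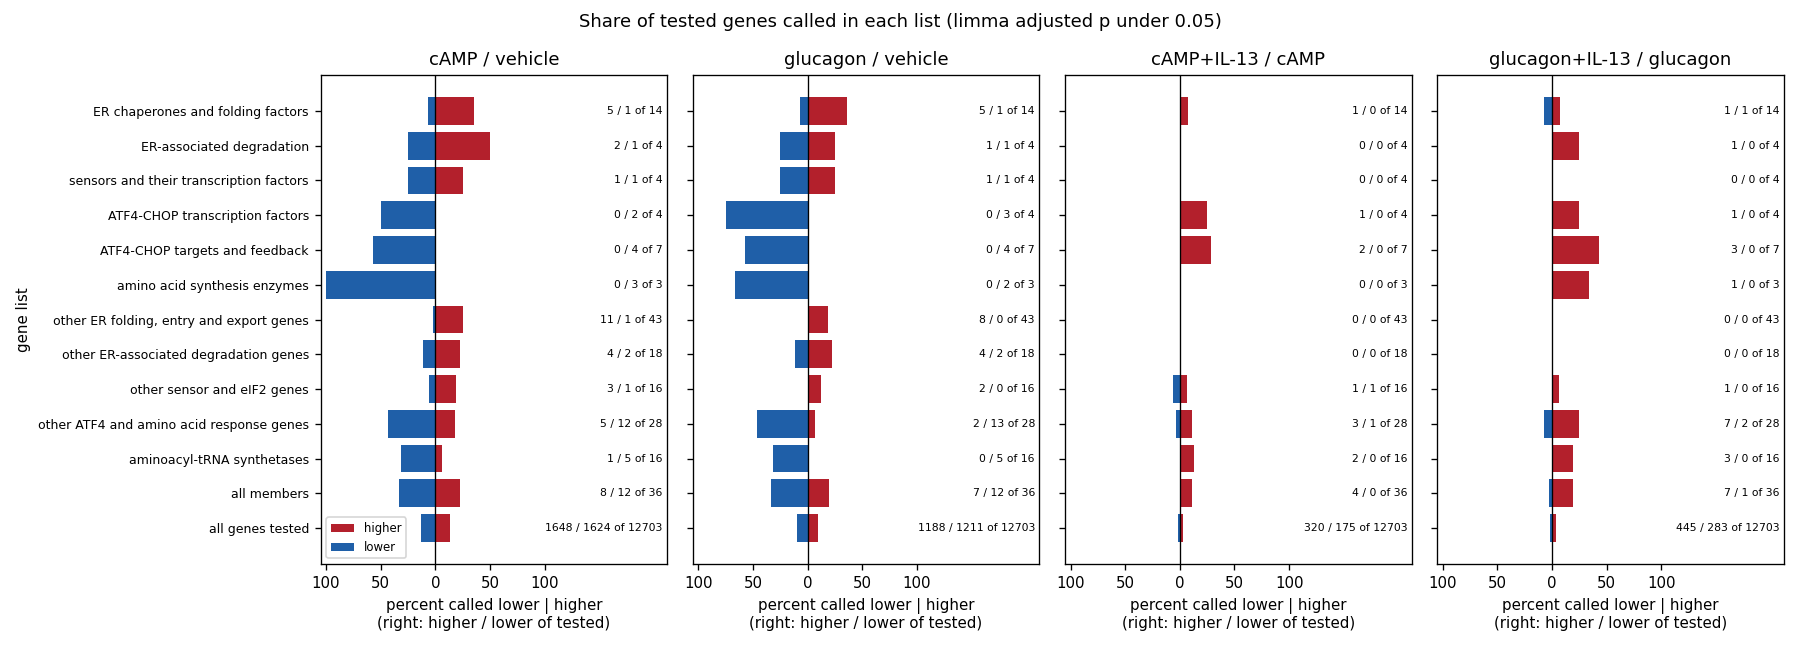
Share of tested genes called higher (red, right) and lower (blue, left) in each list, in percent, with the counts at the right of each panel, for both stimuli against vehicle and for IL-13 with each stimulus. The ATF4-CHOP and synthesis lists lean left against vehicle (9 of 14 genes lower with cAMP) and hold no gene lower with IL-13.

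Beyond the 36 genes, IL-13 raised 3 and lowered 1 of 28 other ATF4 and amino acid response genes under cAMP (2.52% and 1.38% of all genes) and raised 7 and lowered 2 under glucagon (3.50% and 2.23%). Fgf21 had means of 380.1 ± 10.5 scaled reads with cAMP and IL-13 against 279 ± 8.74 with cAMP, and of 266 ± 17.9 with glucagon and IL-13 against 145 ± 13.1 with glucagon (log2 change 0.45 and 0.87). The cAMP call of Fgf21 was not kept without any 1 of the 6 libraries compared (limma, adjusted p from 0.068 to 0.104), and the glucagon call was kept each time. The other 2 genes raised under cAMP, Aldh18a1 (0.31, not called without 5 of the 6 libraries, adjusted p from 0.0793 to 0.118) and Psph (0.25, not called without any 1 of the 6, 0.0588 to 0.188), make proline and serine. Aldh18a1 also rose under glucagon (0.39, limma adjusted p = 0.00338), and that call was kept whichever library was left out. Gpt2, which makes glutamate from alanine, fell under both (-0.49 and -0.55), and Slc38a2, a glutamine transporter, rose under glucagon (0.39). Of the 16 synthetases 2 and 3 rose and 0 fell, with Rars at 0.36 and 0.42. Rars kept both calls whichever library was left out. Aars lost its cAMP call without any 1 of the 6 libraries compared (limma, adjusted p from 0.097 to 0.164). Its glucagon call was lost without 4 of them (0.0582 to 0.103), and that of Yars without 5 (0.0666 to 0.128). None of the 43 other folding genes and none of the 18 other degradation genes tested passed the test with IL-13 (limma; 0 in each direction). Of the 16 other sensor and eIF2 genes, IL-13 raised 1 and lowered 1 under cAMP, and raised 1 and lowered 0 under glucagon. Creb3l3 fell under cAMP (-0.37, limma adjusted p = 0.00393). Eif2b4 rose under cAMP (0.33, adjusted p = 0.0207) and under glucagon (0.38, adjusted p = 0.00562). Its cAMP call was lost without 5 of the 6 libraries (0.0595 to 0.114).

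Glucagon and cAMP were also compared with each other at the single dose of each. Of the 36 genes 0 were higher with glucagon, beside 1.76% of all genes, and 3 were lower, beside 2.51%. Ddit4 stood at 3108, 3392 and 3337 scaled reads with glucagon against 4318, 3699 and 4352 with cAMP, without overlap (log2 change -0.33 ± 0.07, limma adjusted p = 0.0059). Ppp1r15a (-0.30, adjusted p = 0.0102) and Atf4 (-0.20, adjusted p = 0.0144) were lower too. Leaving out cAMP library 1, cAMP library 3 or glucagon library 1 left 1 gene called, and leaving out cAMP library 2 left 5. Ern1, which did not pass (adjusted p = 0.115), had 1478, 1365 and 1271 scaled reads with glucagon against 2059.6, 2127 and 2238 with cAMP, a log2 change of -0.64 ± 0.20 without overlap. In a fit of only these 2 groups Ern1 was called (adjusted p = 4.69e-05). Fgf21 was the other pathway gene with the largest difference (-0.94 ± 0.11, adjusted p = 2.33e-05).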

How the data were processed

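RNA of mouse primary hepatocytes was sequenced from TruSeq libraries, 3 for each of 5 groups. The submitters' processing notes name TopHat 1.3.2 and Cufflinks 2.0.2 as the authors' tools and mm10 as the build. Annotation and strand setting: not given in the sources used here. The deposited table used for all tests holds a signal: each library's estimated reads times a single factor. Undoing the factor gave whole reads (tolerance 0.1) in 94.5% to 98.6% of a library's values. Since the rest were not whole, the values were not treated as counts. The FPKM table deposited by the authors was used for levels between genes and as an alternative.

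Genes had to reach 10 scaled reads in 3 or more libraries. log2(scaled reads + 1) was modelled with limma 3.58.1 (R 4.3.3) on group alone, over the 15 libraries jointly, with a robust variance trend, and p-values were adjusted by Benjamini-Hochberg over all 12703 genes at a threshold of 0.05. Log2 changes carry this pseudocount of 1 and understate the changes of low genes. Depth, 15567578 to 24245894 recovered reads, limits the precision of low genes. The procedure was tested on simulated data.

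The members, gene lists and tests were chosen with earlier results of these data known. Values of every library were printed for members called in at least 1 of the comparisons of a stimulus with vehicle or of IL-13 with the stimulus alone, with an absolute log2 change of at least 0.58 and no overlap between groups, and other members by counts and ranges. From the lists of other genes, at most the 3 called genes with the largest change in each direction were eligible to be named per list and comparison. Members given by library outside this rule (Hspa5, Herpud1, Xbp1, Ern1, Atf3, Atf4 and Ddit4) and the neighbours Mars and Nup62 were chosen after their values were seen. Alternatives covered scaling, filter, pseudocount, the FPKM table, the variance model, a fit of only the libraries compared, a replicate block and leaving out each library, and voom weights on recovered reads were added after seeing the data. Gene positions and exon overlap were taken from GENCODE M21. Vehicle columns carry no replicate number that the labels share and are named a, b and c.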

Additional observations from a re-analysis of the deposited data

How the results depend on the processing

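Of 216 values (36 genes in 6 comparisons) 54 were called. No value called in the main fit or in an alternative changed sign between the 2. Uncalled values could change sign, as Sel1l with glucagon did (0.10, and -0.04 without vehicle library a). Of the 54, 33 kept their call in every fit that left out a library of their own comparison and under every other alternative run. The replicate block was not run against vehicle. The other 21 lost their call in at least 1 fit. The genes called lower against vehicle were the steadier when 1 library was left out: 11 to 14 (cAMP) and 12 to 14 (glucagon). In a fit of only the libraries compared they numbered 10 with cAMP (12 in the report) and 8 with glucagon (12). The falls of Ddit4 (limma, adjusted p = 0.144) and Ppp1r15b (0.0558) with cAMP were not called there. Neither were those of Atf4 (0.114), Chac1 (0.081), Psat1 (0.107) and Phgdh (0.0905) with glucagon. Scaled to the same total, members called higher numbered 4 with cAMP (8 in the report) and 4 with glucagon (7). Fitted on only the libraries compared, they numbered 4 and 1, IL-13 with glucagon lowered 0 members, glucagon lowered 6 against cAMP, and all genes called numbered 2042 (cAMP), 1294 (glucagon), 963 (IL-13 with cAMP) and 4 (difference of the IL-13 effects), against 3272, 2399, 495 and 0. Without the variance trend and robust fit glucagon raised 4 members. With FPKM glucagon lowered 6 members against cAMP, and the difference of the IL-13 effects was called for 1 gene, none a member. The smaller fits use fewer libraries, and the causes of these shifts were not tested.

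With 1 library left out, members raised by glucagon numbered 3 (without glucagon library 1) to 8, including 4 without vehicle library b. Members lowered by IL-13 with glucagon numbered 0 to 1, and those lowered by glucagon against cAMP 1 to 5. All genes called numbered 282 to 396 for IL-13 with cAMP, 430 to 599 for IL-13 with glucagon, 355 to 518 for glucagon against cAMP and 0 to 1 for the difference.

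In their deviations from group means, same-numbered stimulated libraries correlated at -0.468 to 0.486 over 18 pairs. Deviations from a mean of 3 libraries are bound to each other, so these correlations cannot settle whether the numbers pair the libraries. A replicate block over the 12 stimulated libraries called 9 members lower with glucagon against cAMP and 1 gene for the difference of the IL-13 effects. No paired analysis was run against vehicle because the numbers of its columns could not be matched to the titles of its libraries. The count models planned as alternatives were not run because the values are not whole counts. Genes that share exon bases with a neighbour (12 of the 36) could not be separated from it, and 3 libraries per group limit what small changes could be detected.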
